A study of Mus musculus with 16 samples.

Results

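The genes described here encode the subunits of the mitochondrial oxidative phosphorylation machinery, measured in macrophages over 24 h of LPS. They were taken as every gene name on the array that begins with Nduf, Uqcr, Cox4, Cox5, Cox6, Cox7, Cox8 or Atp5 and that had a probe well above background on both arrays of at least 1 group, with the brightest probe standing for each gene. Of 85 such names 82 qualified, among 17669 gene names tested in all. They comprise 36 subunits of complex I, 8 of complex III, 16 of complex IV (with Ndufa4 and Cox7a2l counted there) and 15 of the ATP synthase. The prefixes also caught 4 complex I assembly factors (Ndufaf1 to Ndufaf4) and 3 names that are not subunits of the enzymes (Atp5s, Atp5sl and Cox4nb), which are kept and given apart. The 3 names left out were Cox7b2 and Cox8b, well above background on 0 of 16 arrays, and Cox8c, on 1 of 16. Complex II has none of these prefixes, and the subunits encoded in mitochondrial DNA were not looked at here.

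Cells came from marrow of male C57BL/6Jax mice, cultured with M-CSF, which turns marrow progenitors into macrophages, at 10 ng/mL over 9 days. The tested genotype, miR-155 KO, lacks the microRNA miR-155, which LPS induces in macrophages, and the other genotype was wild type (WT). Both genotypes were sampled unstimulated (0 h) and after 6, 12 and 24 h with 100 ng/mL LPS, the bacterial outer membrane component sensed by Tlr4. Each of the 8 groups has 2 arrays, 16 in all, and the labels do not say whether the 2 came from separate mice or cultures, so p-values measure the spread between these samples only. The deletion itself was not checked here, and the labels give neither the age of the mice nor how the KO allele was made.

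A level is the log2 of a spot's processed signal minus the array's 75th percentile, so 0 is the signal at that percentile. Levels serve to compare arrays for 1 gene, not genes with each other. That percentile ranged over the arrays from 291.0 to 775.7 scanner units, and the share of probes well above background from 56.0% to 67.6%. The arrays numbered 1 and those numbered 2 were scanned in 2 sessions, and 41 of the 82 genes, and 54.7% of all genes, differed between sessions past the threshold. All 8 macrophage markers looked at (Adgre1, Csf1r, Cd68, Itgam, Cd14, Fcgr1, Lyz2 and Mertk) were well above background on all 16 arrays. Of the neutrophil list 4 of 7 markers on the array were well above background on every array, as were 2 of 7 dendritic cell, 4 of 7 stromal, 2 of 6 lymphocyte and 3 of 6 erythroid markers. Defining markers never well above background were Elane, Cd209a, Pdgfra and Alas2. The summed stromal marker level was 1.23 to 1.44 at 6 h of LPS and -0.55 to -0.14 at 0 h, with 0.89 to 1.40 at 12 h and -0.13 to 1.23 at 24 h. The summed erythroid level was -1.88 to -1.13 at 6 h, -2.38 to -1.48 at 12 h and -2.41 to -0.76 at 24 h, against 0.15 to 1.27 at 0 h. The summed dendritic cell level was 2.90 to 4.68 at 6 h and 0.62 to 2.71 at 24 h, against 2.67 to 4.71 at 0 h. Singly, 4, 4 and 3 of the 6 dendritic cell markers tested were called higher at 6, 12 and 24 h and 0 lower. Their median changes were 4.2, 3.15 and 1.85. With the scan session in the fit 4 were higher at each time, and 0, 1 and 1 lower. For the 8 macrophage markers 4, 3 and 2 were called higher and 0 lower (5, 4 and 4, and 0, 2 and 2, with the session). Of all genes 40.7%, 34.5% and 22.8% were called (59.5%, 53.3% and 41.9% with the session). The summed neutrophil level was 0.57 to 5.46 at 6 h, 0.39 to 4.87 at 12 h and -0.54 to 3.49 at 24 h, against 1.76 to 5.63 at 0 h. The median change of the 6 neutrophil markers tested was -0.68, -1.27 and -2.17 at those times. With the scan session in the fit 1 was called higher and 1 lower at 6 h, 1 higher and 4 lower at 12 h, and 4 lower at 24 h (S100a9, Mpo, Ngp and Ltf, at -1.37 to -3.68), while without the session the 24 h changes of these 4 had an adjusted p of 0.125 to 0.243 by limma. The summed lymphocyte level was -2.32 to -0.99 at 6 h against -3.58 to -1.28 at 0 h. The part of such cells in the results below was not tested. In bulk RNA, fewer cells of a type and less RNA per cell cannot be told apart.

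The respiratory chain passes electrons from NADH through complex I, or from succinate through complex II, to coenzyme Q, on through complex III and cytochrome c to complex IV, where oxygen is reduced. Protons pumped on the way drive the ATP synthase. LPS-activated macrophages are known for a shift toward glycolysis, with less mitochondrial respiration and with complex I and succinate feeding the production of reactive oxygen species.

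Few of these genes passed the test, and most measured changes were small. Averaged over the genotypes, 10 of 82 (12.2%) passed the test at 6 h of LPS against 0 h, 8 higher and 2 lower, while 40.7% of all genes passed, 19.5% higher and 21.2% lower. At 12 h 11 of 82 (13.4%) passed, 7 higher and 4 lower, against 34.5% of all genes, 16.9% higher and 17.6% lower. At 24 h 7 of 82 (8.54%) passed, 6 higher and 1 lower, against 22.8% of all genes, 11.0% higher and 11.8% lower. Calls are those with an adjusted p under 0.05 in a limma fit of all genes. The median size of the change at 6 h was 0.23 on the log2 scale for these genes and 0.75 for all genes, and the 10th and 90th percentiles were -0.41 and 0.53, against -1.74 and 1.79 for all genes. The LPS arrays did not overlap the 0 h arrays for 18.3%, 19.5% and 18.3% of the 82 genes at 6, 12 and 24 h, against 46.0%, 41.3% and 32.4% of all genes.

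**Figure D1:**
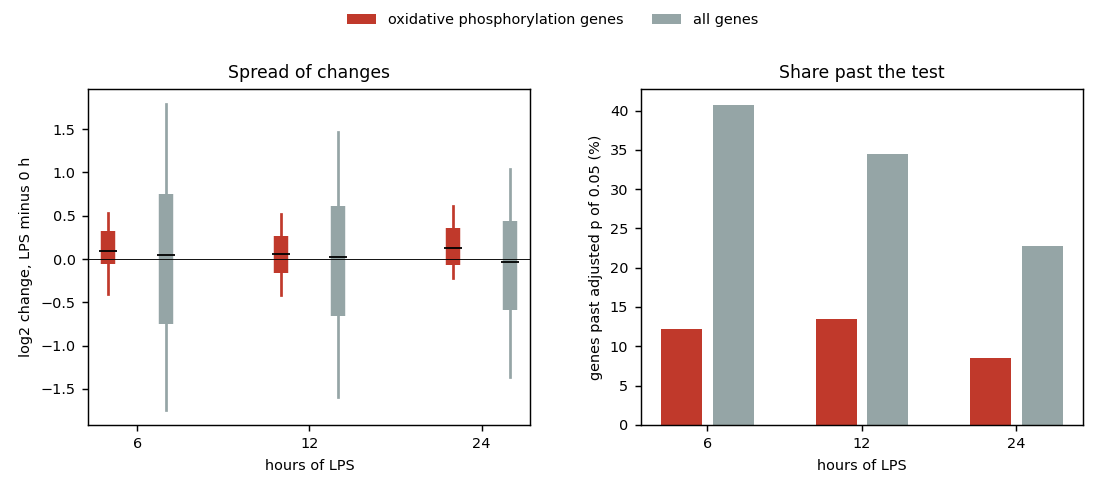
Left, log2 change at 6, 12 and 24 h of LPS against 0 h, genotypes averaged, for the 82 oxidative phosphorylation genes (red) and all 17669 genes (grey); the thick bar spans the quartiles, the thin line the 10th to the 90th percentile, and the black dash is the median. Right, percentage of genes with an adjusted p under 0.05, which was 12.2%, 13.4% and 8.54% for the 82 genes and 40.7%, 34.5% and 22.8% for all genes.

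With the scaling used here the precision was enough to bound most of these changes. The intervals are from the fit without the scan session, and they do not cover the choice of scaling, which is taken up below. The 95% confidence interval of the change at 6 h lay wholly inside 1 log2 unit, that is inside a 2-fold change either way, for 62 of the 82 genes (75.6%) and for 20.6% of all genes. It did so for 61 of 82 (74.4%) at 12 h and again at 24 h, against 24.0% and 28.7% of all genes. In all, 18 of 82 genes were called at 1 or more times, against 49.8% of all genes, and 31 of 82 (37.8%) with the scan session in the fit, against 73.2% of all genes. Without the session 3 were called at all 3 times (Ndufs4, Cox5a and Cox6a2). Probe brightness was set beside this, since 69 of the 82 genes lie in the brightest quartile of genes. Of those 69, 7 were called at 6 h, 7 at 12 h and 3 at 24 h, while 46.0%, 41.4% and 28.7% of all genes in that quartile were. With the scan session in the fit, 19 genes were called at 6 h (12 higher, 7 lower), 20 at 12 h (11 higher, 9 lower) and 16 at 24 h (13 higher, 3 lower), against 59.5%, 53.3% and 41.9% of all genes. All 28 calls made without the session held with it.

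The direction of the small changes depends on how arrays are scaled. With the scaling used here the median change of the 82 genes was 0.10 at 6 h, 0.06 at 12 h and 0.13 at 24 h, against 0.05, 0.02 and -0.03 for all genes. Quantile normalization moved it to -0.55, -0.49 and -0.14, with 1 gene higher and 30 lower at 6 h, 3 higher and 29 lower at 12 h, and 3 higher and 5 lower at 24 h. The share called was then 37.8% at 6 h, 39.0% at 12 h and 9.76% at 24 h, against 47.2%, 38.9% and 25.7% of all genes, so that at 12 h the share of the 82 genes was no longer below that of all genes. Scaling to the array's median moved it to 0.21, 0.27 and 0.45, with all genes at 0.16, 0.24 and 0.29. No common direction of the 82 genes can therefore be given, and for the 28 calls of members at 6, 12 and 24 h made without the session, what quantile normalization did to them is given below. Under quantile normalization the 10th and 90th percentiles at 6 h were -0.90 and -0.05, against -1.83 and 1.66 for all genes.

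**Figure D2:**
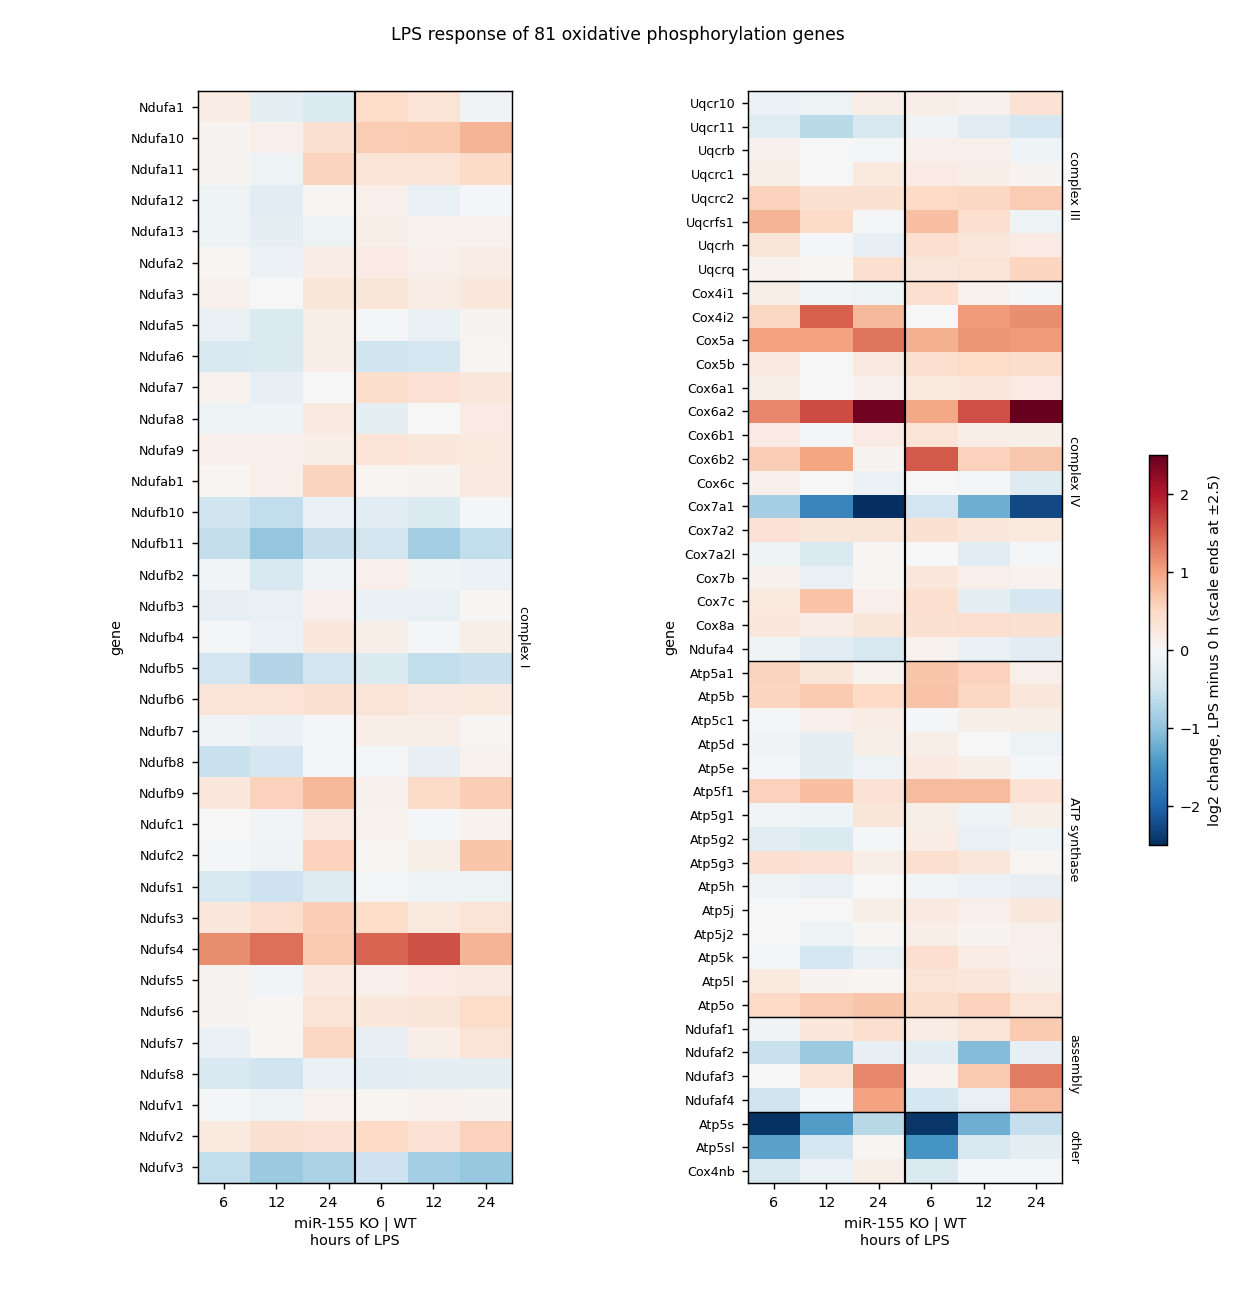
Log2 change at 6, 12 and 24 h of LPS against 0 h for 81 of the 82 genes, in miR-155 KO (left 3 columns of each panel) and WT cells (right 3 columns); red is higher and blue lower with LPS, and the scale ends at 2.5 either way. Most cells are pale, and the strongly coloured rows include Ndufs4, Cox6a2, Cox7a1 and Atp5s; the Cox4i2 row is drawn from signals near background and gives no fold.

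Of the promoters of these genes, 5 are shown because they belong to the genes on which the account turns: Ndufs4 and Cox5a, called higher at every time, Cox7a1, called lower, its widely expressed relative Cox7a2, and Cox6a1, which were not called at any time. Each is the 250 bases before the annotated start on the gene's strand, 5′ to 3′, from RefSeq on GRCm38.p6, with matches to 4 motifs in capitals. Cox6a2 had no entry in the table. The windows are chr13:114388095-114388344 (minus strand) for Ndufs4, chr9:57520982-57521231 (plus) for Cox5a, chr7:30183921-30184170 (plus) for Cox7a1, chr9:79759854-79760103 (minus) for Cox7a2 and chr5:115348959-115349208 (minus) for Cox6a1.
Ndufs4: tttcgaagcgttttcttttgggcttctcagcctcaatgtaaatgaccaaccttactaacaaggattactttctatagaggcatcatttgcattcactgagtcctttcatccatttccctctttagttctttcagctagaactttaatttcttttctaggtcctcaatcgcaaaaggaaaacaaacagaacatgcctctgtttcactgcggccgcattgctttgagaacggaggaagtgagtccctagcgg
Cox5a: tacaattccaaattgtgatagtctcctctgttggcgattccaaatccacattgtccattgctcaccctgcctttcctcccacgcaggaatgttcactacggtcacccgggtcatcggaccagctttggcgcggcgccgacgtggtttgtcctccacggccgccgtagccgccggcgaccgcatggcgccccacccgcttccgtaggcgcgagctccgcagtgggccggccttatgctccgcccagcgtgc
Cox7a1: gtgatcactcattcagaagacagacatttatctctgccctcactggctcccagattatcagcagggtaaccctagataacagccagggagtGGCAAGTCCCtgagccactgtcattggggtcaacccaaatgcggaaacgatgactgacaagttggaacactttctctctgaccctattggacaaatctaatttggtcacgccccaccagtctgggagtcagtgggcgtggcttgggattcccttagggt
Cox7a2: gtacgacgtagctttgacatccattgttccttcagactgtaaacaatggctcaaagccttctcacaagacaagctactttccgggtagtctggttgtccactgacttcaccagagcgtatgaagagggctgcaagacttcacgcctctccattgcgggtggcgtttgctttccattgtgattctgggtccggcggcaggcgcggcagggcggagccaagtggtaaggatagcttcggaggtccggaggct
Cox6a1: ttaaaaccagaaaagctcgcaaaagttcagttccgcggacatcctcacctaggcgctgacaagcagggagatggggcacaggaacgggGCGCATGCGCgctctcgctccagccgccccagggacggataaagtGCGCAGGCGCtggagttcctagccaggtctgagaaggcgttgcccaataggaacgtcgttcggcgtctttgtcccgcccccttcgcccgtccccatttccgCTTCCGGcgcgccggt

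The motifs searched, on both strands, were GCGCA and GCGC with 1 base of any kind between them for NRF1 and CCGGAAG for ETS factors such as GABPA, both regulators of nuclear genes for mitochondrial proteins, AAGGTCA for the oestrogen-related receptors, and GGGA and CC with 4 bases of any kind between them for NF-kB, the factor that Tlr4 signalling activates. The capitals mark NRF1 matches from 162 to 153 and from 117 to 108 bases before the start of Cox6a1, an ETS match from 16 to 10 bases before it, and an NF-kB match from 159 to 150 bases before the start of Cox7a1. The other 3 windows hold 0 matches. Of the 82 genes 69 had a window. NRF1 letters occurred in 12 of the 69 (17.4%) and in 4.2% of the windows of all 27025 genes, and ETS letters in 12 (17.4%) and in 7.8%. The receptor letters occurred in 5 (7.2%) and in 4.7%, and the NF-kB letters in 14 (20.3%) and in 19.7%. Among the 15 called genes with a window 1 held the NRF1 letters, 0 the ETS letters and 3 the NF-kB letters, and among the 54 others 11, 12 and 11 did. These are counts of letters, not of bound sites.

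Complex I takes electrons from NADH and is built from an N module that oxidises NADH, a Q module that reduces coenzyme Q, and a membrane arm that pumps protons. Ndufs4, an accessory subunit at the junction of the N and Q modules that is needed for a stable enzyme, rose at every time. In all 4 of the 36 subunits (11.1%) were called at 1 or more times without the scan session in the fit, against 49.8% of all genes. With the session 11 were (30.6%), against 73.2% of all genes. At 6 h 1 of 36 was called, higher (3 higher and 3 lower with the session). At 12 h 1 was higher and 2 lower (1 and 4 with the session), and at 24 h 2 were higher (6 higher and 2 lower with the session). Ndufs4 read 3.76 and 3.6 in KO cells at 0 h, 4.55 and 5.15 at 6 h, 4.77 and 5.34 at 12 h, and 4.38 and 4.28 at 24 h. Ndufs4 values in WT cells were 3.57 and 3.52 at 0 h, 4.78 and 5.23 at 6 h, 4.81 and 5.47 at 12 h, and 4.33 and 4.46 at 24 h. Every LPS array at 6, 12 and 24 h was above every 0 h array in both genotypes. The change was 1.31 ± 0.23 (SE) at 6 h, a 2.48-fold rise with adjusted p = 0.00106 by limma, 1.49 ± 0.23 at 12 h, a 2.80-fold rise, and 0.75 ± 0.23 at 24 h, a 1.68-fold rise. The first 2 calls held without any 1 array and under quantile normalization (0.70 and 1.01). The call at 24 h (adjusted p = 0.0396 by limma) was lost when any 1 of the 8 arrays of 0 and 24 h was left out, at most at 0.116 without WT 24 h replicate 2, with the slide in the fit (adjusted p = 0.0504) and under quantile normalization (0.49, adjusted p = 0.0827). The Ndufs4 probe lies at chr13:115078980-115079039 on mm9, minus strand, and the array file does not say in which exon.

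Ndufc2, a membrane arm subunit, was called higher at 24 h and not at 6 or 12 h. Ndufc2 read 5.86 and 5.78 in KO cells at 0 h, 5.47 and 6.12 at 6 h, 5.84 and 5.64 at 12 h, and 6.58 and 6.2 at 24 h. Ndufc2 values in WT cells were 5.77 and 5.75 at 0 h, 5.67 and 5.91 at 6 h, 5.77 and 6.02 at 12 h, and 6.55 and 6.36 at 24 h. The 24 h arrays all lay above the 0 h arrays, by 0.63 ± 0.20 on average (adjusted p = 0.0402 by limma). That call was the least steady of the 28, being lost without any 1 of 14 arrays (up to adjusted p = 0.112, without KO 24 h replicate 1), with the slide in the fit (adjusted p = 0.131) and under quantile normalization (0.34, adjusted p = 0.199). From 6 to 24 h Ndufc2 was called as well, at 0.63 ± 0.20.

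Ndufb11 and Ndufb5, both of the membrane arm, fell at 12 h. Ndufb11 read 6.16 and 5.88 in KO cells at 0 h, 5.38 and 5.46 at 6 h, 5.26 and 4.84 at 12 h, and 5.78 and 5.08 at 24 h. Ndufb11 values in WT cells were 6.02 and 5.78 at 0 h, 5.63 and 5.26 at 6 h, 5.07 and 5.04 at 12 h, and 5.54 and 5.05 at 24 h. All LPS arrays of Ndufb11 at 6, 12 and 24 h were below all 0 h arrays, with a fall at 12 h of 0.91 ± 0.22 (log2 change -0.91, adjusted p = 0.00898 by limma), which held without any 1 array and was -1.49 under quantile normalization. Ndufb11 was also called lower, with the session in the fit, at 6 h (-0.53 ± 0.22) and 24 h (-0.60 ± 0.22), with adjusted p = 0.012 and 0.00972 by limma. Ndufb5 read 1.6 and 1.58 in KO cells at 0 h, 0.88 and 1.35 at 6 h, 0.99 and 0.72 at 12 h, and 1.45 and 0.78 at 24 h. Ndufb5 values in WT cells were 1.56 and 1.42 at 0 h, 1.06 and 1.23 at 6 h, 0.86 and 0.91 at 12 h, and 1.25 and 0.63 at 24 h. Ndufb5 was also below its 0 h arrays on every 12 h array, at -0.67 ± 0.22 (adjusted p = 0.037 by limma). Its call was lost without any 1 of 10 arrays (up to 0.117 without KO 12 h replicate 2) and held under quantile normalization at -0.80.

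Among the core subunits that were not called, Ndufs1, the largest subunit, and Ndufv1, which binds NADH, belong to the N module. Ndufv1 read 4.64 and 4.37 in KO cells at 0 h, 4.35 and 4.6 at 6 h, 4.35 and 4.41 at 12 h, and 4.76 and 4.45 at 24 h. Ndufv1 values in WT cells were 4.44 and 4.16 at 0 h, 4.43 and 4.28 at 6 h, 4.21 and 4.56 at 12 h, and 4.52 and 4.21 at 24 h. The Ndufv1 arrays overlapped between times. Ndufs1 read 3.83 and 4.83 in KO cells at 0 h, 3.68 and 4.18 at 6 h, 3.66 and 3.97 at 12 h, and 3.97 and 4.05 at 24 h. Ndufs1 values in WT cells were 3.7 and 4.41 at 0 h, 3.87 and 4.18 at 6 h, 3.57 and 4.31 at 12 h, and 3.81 and 4.08 at 24 h. Here the session 2 arrays (replicate 2) were the higher ones in every group.

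Ndufv3, of the N module, had the lowest values among uncalled complex I subunits, at -0.57 ± 0.34 at 6 h, -0.89 ± 0.34 at 12 h and -0.87 ± 0.34 at 24 h. Ndufv3 read 3.85 and 3.13 in KO cells at 0 h, 3.18 and 2.58 at 6 h, 2.91 and 2.22 at 12 h, and 3.17 and 2.23 at 24 h. Ndufv3 values in WT cells were 3.68 and 3.16 at 0 h, 3.16 and 2.63 at 6 h, 2.84 and 2.29 at 12 h, and 2.95 and 2.0 at 24 h. The 12 h arrays of Ndufv3 were all below the 0 h arrays, and replicate 1 was the higher in every group. Within session 1 the averaged changes were -0.60, -0.89 and -0.71, and within session 2 -0.53, -0.88 and -1.03. With the session in the fit all 3 passed (adjusted p = 0.00364, 0.000279 and 0.000514 by limma). Its other 2 detected probes gave -1.09 and -1.15 at 6 h, both called in a fit of all probes. They gave -0.22 and -0.33 at 12 h and -0.0019 and 0.0053 at 24 h, not called. The probes thus disagree on the time course, most at 24 h, where the chosen probe gave -0.87. Over the rest of the uncalled subunits, changes reached from that of Ndufv3 up to 0.53 for Ndufb9 at 12 h and up to 0.73 for Ndufb9 at 24 h. With the session in the fit calls were also made for Ndufa6, of the N module, lower at 6 and 12 h (-0.44 and -0.40, SE 0.22), and for 3 of the membrane arm and other subunits, all higher at 24 h, namely Ndufb9 (0.73 ± 0.29), Ndufa10 (0.62 ± 0.31) and Ndufa11 (0.51 ± 0.23). In the Q module 2 of 5 genes were called at 1 or more times with the session, against 73.2% of all genes. Among the 2 was Ndufs3, at 6 h (0.35 ± 0.23) and 24 h (0.48 ± 0.23, adjusted p = 0.174 by limma without and 0.0126 with the session). By module, the median changes at 6, 12 and 24 h were 0.07, -0.02 and 0.12 over the 10 N module genes, -0.12, 0.10 and 0.11 over the 5 of the Q module, and 0.05, 0.01 and 0.20 over the 21 others.

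Complex III passes electrons from coenzyme Q to cytochrome c. Of its 8 genes 2 were called higher at 6 h (Uqcrfs1 and Uqcrc2), 1 at 12 h (Uqcrfs1) and 0 at 24 h. Called higher of all genes were 19.5%, 16.9% and 11.0%. At 24 h limma gave 1 of the 8 an unadjusted p under 0.05. Uqcrfs1 is the Rieske iron-sulphur protein, added last to the complex and part of its electron path. Uqcrfs1 read 4.03 and 4.13 in KO cells at 0 h, 4.85 and 5.03 at 6 h, 4.53 and 4.58 at 12 h, and 4.05 and 4.03 at 24 h. Uqcrfs1 values in WT cells were 4.26 and 4.14 at 0 h, 4.95 and 4.96 at 6 h, 4.62 and 4.61 at 12 h, and 4.06 and 4.11 at 24 h. The 6 h arrays of Uqcrfs1 were all above the 0 h arrays, the 12 h arrays lay between the 2, and the 24 h arrays overlapped the 0 h arrays. Its change was 0.80 ± 0.14 at 6 h (1.75-fold, adjusted p = 0.00127 by limma), 0.44 ± 0.14 at 12 h and -0.08 ± 0.14 at 24 h, and it was 0.89 lower at 24 h than at 6 h (log2 change -0.89 ± 0.14, adjusted p = 0.00153 by limma). The 6 h call held without any 1 array but not under quantile normalization (0.14, adjusted p = 0.455). The 12 h call was lost without any 1 of 12 arrays (up to 0.107 without WT 0 h replicate 2) and turned to -0.08 under quantile normalization.

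Uqcrc2 and Uqcrc1 are the core proteins that face the matrix. Uqcrc2 read 4.63 and 4.53 in KO cells at 0 h, 4.87 and 5.44 at 6 h, 4.79 and 5.13 at 12 h, and 4.91 and 5.02 at 24 h. Uqcrc2 values in WT cells were 4.51 and 4.4 at 0 h, 4.89 and 5.0 at 6 h, 4.96 and 4.98 at 12 h, and 5.05 and 5.13 at 24 h. Every 6 h array of Uqcrc2 was above the 0 h arrays, by 0.53 ± 0.18 (adjusted p = 0.0335 by limma). The call was lost without any 1 of 7 arrays (up to 0.122 without KO 6 h replicate 2), and quantile normalization turned it to -0.15. Uqcrc1 read 5.21 and 5.0 in KO cells at 0 h, 5.24 and 5.29 at 6 h, 5.4 and 4.83 at 12 h, and 5.58 and 5.12 at 24 h. Uqcrc1 values in WT cells were 5.08 and 4.85 at 0 h, 5.38 and 4.94 at 6 h, 4.96 and 5.29 at 12 h, and 5.35 and 4.72 at 24 h. The arrays of Uqcrc1 overlapped between times. Uqcrc2 was also called with the session in the fit, at 12 h (0.45 ± 0.18) and 24 h (0.51 ± 0.18), with adjusted p = 0.0227 and 0.016 by limma. With the session 3 of the 8 genes were called at 1 or more times, against 73.2% of all genes. Among the genes uncalled without the session, Uqcr11 was lowest, at -0.19, -0.48 and -0.41 (at 12 h adjusted p = 0.389 by limma, and 0.0348 with the session), and the highest at 6 h was Uqcrh at 0.35.

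Complex IV, cytochrome c oxidase, reduces oxygen. Several of its small subunits come in a widely expressed form and a form restricted to heart and skeletal muscle or to other tissues. Cox5a and Cox6a2 rose at every time and Cox7a1 fell at 24 h. With the scan session in the fit 6 of the 16 genes were called at 1 or more times, against 73.2% of all genes. All 4 tissue-restricted forms are among the 6, including Cox4i2, whose signal was near background. Without the session 3 were, against 49.8% of all genes. Cox5a is a nuclear-encoded subunit with no tissue form. Cox5a read 7.03 and 6.66 in KO cells at 0 h, 7.63 and 8.06 at 6 h, 8.07 and 7.62 at 12 h, and 8.34 and 8.05 at 24 h. Cox5a values in WT cells were 6.86 and 6.58 at 0 h, 7.62 and 7.61 at 6 h, 7.77 and 7.88 at 12 h, and 7.92 and 7.66 at 24 h. Every LPS array of Cox5a was above every 0 h array. The rise was 0.95 ± 0.20 at 6 h (1.93-fold), 1.05 ± 0.20 at 12 h (2.07-fold) and 1.21 ± 0.20 at 24 h (2.31-fold), with adjusted p = 0.00293, 0.00203 and 0.0014 by limma. All 3 calls held without any 1 array. Under quantile normalization Cox5a was called at 12 h (0.53) and 24 h (0.95) and no longer at 6 h, where its change was 0.21 (adjusted p = 0.267). The Cox5a probe spans chr9:57379593-57380141 on mm9, longer than a probe and so across a splice junction.

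Cox6a2 and Cox7a1 are the heart and skeletal muscle forms of their subunits, and Cox6a1 and Cox7a2 the widely expressed ones. Cox6a2 read 0.83 and 0.73 in KO cells at 0 h, 1.57 and 2.39 at 6 h, 3.06 and 1.76 at 12 h, and 3.84 and 2.54 at 24 h. Cox6a2 values in WT cells were 0.43 and 0.51 at 0 h, 1.39 and 1.46 at 6 h, 2.19 and 1.97 at 12 h, and 3.65 and 2.5 at 24 h. Cox6a2 was above its 0 h arrays on every LPS array, in both genotypes. It rose by 1.08 ± 0.39 at 6 h, 1.62 ± 0.39 at 12 h and 2.51 ± 0.39 at 24 h, the last a 5.69-fold rise (adjusted p = 0.00107 by limma). The calls at 12 and 24 h held without any 1 array and under quantile normalization (1.51 and 2.49). The 6 h call (adjusted p = 0.0474 by limma) was lost without any 1 of 9 arrays (up to 0.149 without KO 6 h replicate 2) and under quantile normalization (0.96, adjusted p = 0.0766). The level was 1.43 ± 0.39 higher at 24 h than at 6 h (adjusted p = 0.0206 by limma). Cox6a1 read 8.73 and 7.93 in KO cells at 0 h, 8.5 and 8.47 at 6 h, 8.59 and 8.04 at 12 h, and 8.82 and 8.06 at 24 h. Cox6a1 values in WT cells were 8.46 and 7.78 at 0 h, 8.65 and 8.07 at 6 h, 8.42 and 8.34 at 12 h, and 8.63 and 8.01 at 24 h. The Cox6a1 arrays of all times overlapped, with changes of 0.20, 0.12 and 0.16 (SE 0.29).

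Cox7a1 read 2.82 and 2.21 in KO cells at 0 h, 2.31 and 1.07 at 6 h, 1.84 and -0.1 at 12 h, and 0.82 and -0.82 at 24 h. Cox7a1 values in WT cells were 2.65 and 1.98 at 0 h, 2.57 and 1.12 at 6 h, 1.64 and 0.56 at 12 h, and 0.77 and -0.65 at 24 h. Cox7a1 was below its 0 h arrays on every 12 and 24 h array, overlapped them at 6 h, and was higher on replicate 1 in every group. It changed by -0.65 ± 0.60 at 6 h and -1.43 ± 0.60 at 12 h, not called, and fell 5.22-fold by 24 h (-2.38 ± 0.60, adjusted p = 0.0165 by limma). Within session 1 the changes were -0.30, -0.99 and -1.94 and within session 2 -1.0, -1.86 and -2.83, and with the session in the fit all 3 passed (adjusted p = 0.0287 at 6 h and 0.000453 at 12 h by limma). The 24 h call was lost without KO 0 h replicate 1, WT 0 h replicate 1, KO 24 h replicate 2 or WT 24 h replicate 2 (up to 0.0709), and held under quantile normalization at -2.54. Cox7a2 read 6.26 and 5.6 in KO cells at 0 h, 6.3 and 6.3 at 6 h, 6.47 and 6.0 at 12 h, and 6.68 and 5.79 at 24 h. Cox7a2 values in WT cells were 6.1 and 5.79 at 0 h, 6.56 and 6.07 at 6 h, 6.27 and 6.15 at 12 h, and 6.48 and 5.9 at 24 h. Cox7a2 overlapped between times, at 0.37, 0.29 and 0.27 (SE 0.27).

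**Figure D3:**
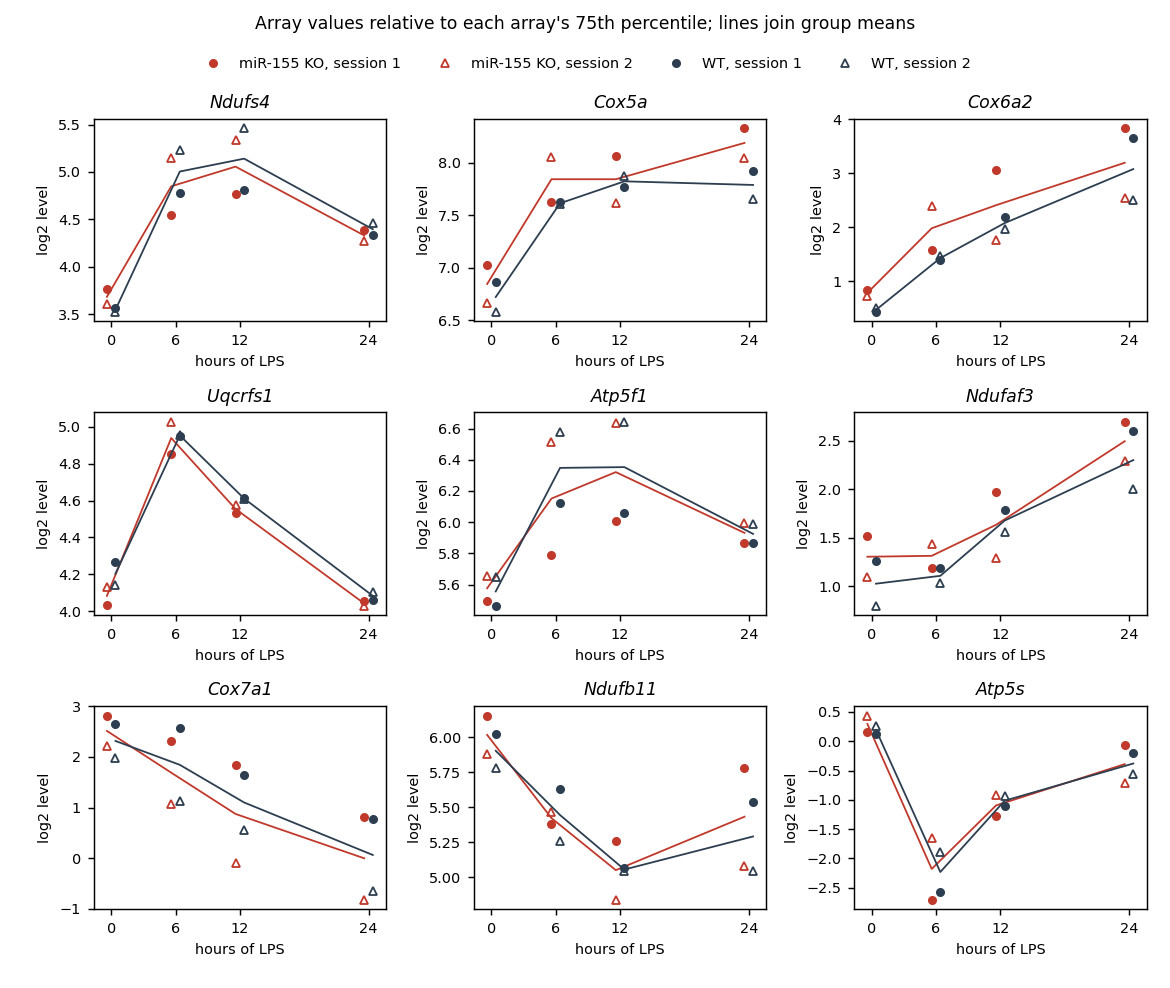
Log2 level on every array for 9 genes against hours of LPS, in miR-155 KO (red) and WT cells (dark), with circles for scan session 1, triangles for session 2 and lines through the group means. Ndufs4, Cox5a and Cox6a2 are above their 0 h values on every LPS array, Uqcrfs1 overlaps its 0 h values at 24 h, and Cox7a1 is separated by session at every time.

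The restricted forms Cox4i2 and Cox6b2 were weak or variable. Cox4i2 read -5.67 and -8.09 in KO cells at 0 h, -5.0 and -7.73 at 6 h, -4.88 and -5.9 at 12 h, and -5.74 and -6.4 at 24 h. Cox4i2 values in WT cells were -6.15 and -7.68 at 0 h, -5.64 and -8.21 at 6 h, -4.34 and -7.35 at 12 h, and -5.78 and -5.73 at 24 h. Both arrays of Cox4i2 were well above background only at 24 h in each genotype, and at 6 h in WT neither was, so no fold is given. Cox6b2, the testis form, differed mostly by session, with a change of 1.08 ± 0.63 at 6 h (adjusted p = 0.209 by limma, and 0.000462 with the session) and of 0.78 ± 0.63 at 12 h (0.393 and 0.00397). The widely expressed form Cox4i1 overlapped between times. Cox4i1 read 7.68 and 7.49 in KO cells at 0 h, 7.58 and 7.87 at 6 h, 7.59 and 7.43 at 12 h, and 7.59 and 7.32 at 24 h. Cox4i1 values in WT cells were 7.52 and 7.16 at 0 h, 7.92 and 7.59 at 6 h, 7.36 and 7.5 at 12 h, and 7.5 and 7.08 at 24 h. Its changes were 0.28, 0.01 and -0.09 (SE 0.19). Cox5b read 7.1 and 6.52 in KO cells at 0 h, 7.0 and 7.08 at 6 h, 7.01 and 6.63 at 12 h, and 7.23 and 6.84 at 24 h. Cox5b values in WT cells were 6.88 and 6.14 at 0 h, 7.04 and 6.84 at 6 h, 6.9 and 7.05 at 12 h, and 7.19 and 6.73 at 24 h. Likewise Cox5b, the zinc-binding subunit, overlapped between times.

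Ndufa4, once assigned to complex I and now placed in complex IV, and Cox7a2l, which helps to join complexes III and IV, were not called at any time without the session. Ndufa4 read 5.07 and 4.71 in KO cells at 0 h, 4.76 and 4.84 at 6 h, 4.73 and 4.54 at 12 h, and 4.86 and 4.11 at 24 h. Ndufa4 values in WT cells were 4.87 and 4.67 at 0 h, 4.82 and 4.9 at 6 h, 4.59 and 4.61 at 12 h, and 4.67 and 4.34 at 24 h. Ndufa4 at 24 h had the lowest change of the uncalled complex IV genes, -0.34. Cox7a2l read 4.29 and 4.63 in KO cells at 0 h, 4.17 and 4.54 at 6 h, 4.04 and 4.17 at 12 h, and 4.4 and 4.59 at 24 h. Cox7a2l values in WT cells were 4.35 and 4.49 at 0 h, 4.39 and 4.42 at 6 h, 3.91 and 4.36 at 12 h, and 4.27 and 4.47 at 24 h. With the session in the fit Cox7a2l passed at 12 h (-0.32 ± 0.18, adjusted p = 0.205 by limma without and 0.0438 with it). Cox8a read 7.2 and 6.66 in KO cells at 0 h, 7.19 and 7.18 at 6 h, 7.23 and 6.99 at 12 h, and 7.46 and 6.98 at 24 h. Cox8a values in WT cells were 7.0 and 6.54 at 0 h, 7.33 and 6.98 at 6 h, 7.16 and 7.21 at 12 h, and 7.34 and 6.96 at 24 h. Cox8a, a small membrane subunit, overlapped between times.

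The ATP synthase consists of the F1 head, which makes ATP, and the Fo ring and stalk in the membrane. Of its 15 genes 3 were called higher at 6 h, 3 at 12 h and 0 at 24 h, against 19.5%, 16.9% and 11.0% of all genes. At 24 h limma gave 1 of the 15 an unadjusted p under 0.05, and no gene of the 15 was called lower. The called genes were Atp5a1 and Atp5b, the alpha and beta subunits of the head, and Atp5f1 and Atp5o, both of the peripheral stalk. Atp5f1 read 5.5 and 5.66 in KO cells at 0 h, 5.79 and 6.51 at 6 h, 6.01 and 6.63 at 12 h, and 5.87 and 6.0 at 24 h. Atp5f1 values in WT cells were 5.46 and 5.65 at 0 h, 6.12 and 6.58 at 6 h, 6.06 and 6.64 at 12 h, and 5.86 and 5.99 at 24 h. In Atp5f1 the replicate 2 arrays were the higher ones in every group, and all 6, 12 and 24 h arrays lay above the 0 h arrays. It rose by 0.68 ± 0.24 at 6 h and 0.77 ± 0.24 at 12 h (1.71-fold, adjusted p = 0.0298 by limma). Atp5b read 6.98 and 6.92 in KO cells at 0 h, 7.21 and 7.78 at 6 h, 7.51 and 7.7 at 12 h, and 7.55 and 7.34 at 24 h. Atp5b values in WT cells were 6.88 and 6.78 at 0 h, 7.3 and 7.8 at 6 h, 7.31 and 7.38 at 12 h, and 7.09 and 7.12 at 24 h. Each 6 and 12 h array of Atp5b was above the 0 h arrays, by 0.63 ± 0.19 and 0.59 ± 0.19 on average (adjusted p = 0.0218 and 0.0351 by limma). Atp5a1 read 5.97 and 5.93 in KO cells at 0 h, 6.38 and 6.64 at 6 h, 6.24 and 6.28 at 12 h, and 6.1 and 5.99 at 24 h. Atp5a1 values in WT cells were 6.13 and 5.57 at 0 h, 6.26 and 6.81 at 6 h, 6.32 and 6.52 at 12 h, and 5.92 and 6.06 at 24 h. Atp5a1 rose by 0.62 ± 0.19 at 6 h (adjusted p = 0.0258 by limma), with every 6 h array above the 0 h arrays.

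Atp5o rose by 0.60 ± 0.20 at 12 h (adjusted p = 0.0371 by limma). Atp5o was called at 6 and 24 h too with the session in the fit (adjusted p = 0.0385 and 0.0334 by limma), so that 4, 3 and 1 of the 15 genes were higher at 6, 12 and 24 h. None of the 6 calls made without the session survived both leaving out any 1 array and quantile normalization. Their highest adjusted p with 1 array left out was 0.149 for Atp5f1 at 6 h (without KO 6 h replicate 2) and 0.116 at 12 h (without KO 12 h replicate 2), 0.0858 and 0.109 for Atp5b (without WT 6 h replicate 2 and KO 12 h replicate 2), 0.101 for Atp5a1 (without WT 0 h replicate 2) and 0.127 for Atp5o (without KO 0 h replicate 2). Quantile normalization put the 6 h changes at -0.09 for Atp5f1, -0.10 for Atp5b and -0.14 for Atp5a1, and the 12 h changes at 0.14, 0.06 and 0.01 for Atp5f1, Atp5b and Atp5o. The further probes of Atp5a1, Atp5b and Atp5f1 had the same sign at 6 and 12 h and were not called. The gamma subunit Atp5c1 was not called, though its 24 h arrays lay above the 0 h arrays, by 0.17 ± 0.17 on average. Atp5c1 read 6.34 and 6.37 in KO cells at 0 h, 6.05 and 6.62 at 6 h, 6.42 and 6.55 at 12 h, and 6.62 and 6.46 at 24 h. Atp5c1 values in WT cells were 6.29 and 6.36 at 0 h, 6.31 and 6.29 at 6 h, 6.32 and 6.61 at 12 h, and 6.53 and 6.42 at 24 h. The uncalled genes lay between -0.08 and 0.47 at 6 h, -0.26 and 0.44 at 12 h and -0.11 and 0.52 at 24 h, the last value being that of Atp5o.

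The complex I assembly factors are not part of the finished enzyme. The 4 with Ndufaf names are taken here. Of these, Ndufaf3 and Ndufaf4, which act together early in assembly, were called higher at 24 h and Ndufaf2, a late-acting factor, lower at 12 h. Ndufaf3 read 1.52 and 1.09 in KO cells at 0 h, 1.19 and 1.44 at 6 h, 1.97 and 1.29 at 12 h, and 2.7 and 2.29 at 24 h. Ndufaf3 values in WT cells were 1.25 and 0.8 at 0 h, 1.18 and 1.03 at 6 h, 1.79 and 1.56 at 12 h, and 2.6 and 2.0 at 24 h. The 24 h arrays of Ndufaf3 were all above the 0 h arrays, by 1.23 ± 0.24 (2.35-fold, adjusted p = 0.00385 by limma), a call that held without any 1 array and under quantile normalization (1.14). At 6 h it had changed by 0.05 ± 0.24, and the rise from 6 to 24 h was 1.19 ± 0.24. Ndufaf4 read 0.86 and 1.56 in KO cells at 0 h, 0.34 and 1.07 at 6 h, 1.42 and 0.89 at 12 h, and 2.37 and 2.05 at 24 h. Ndufaf4 values in WT cells were 0.76 and 1.51 at 0 h, 0.43 and 0.96 at 6 h, 0.85 and 1.03 at 12 h, and 2.11 and 1.72 at 24 h. Ndufaf4 at 24 h was likewise above its 0 h arrays, by 0.89 ± 0.28 (adjusted p = 0.0438 by limma), with 1.43 in session 1 and 0.35 in session 2, and a further probe gave 0.82, also called. The call was lost without any 1 of 12 arrays (up to 0.145 without WT 0 h replicate 1), with the slide in the fit (0.46, adjusted p = 0.19) and under quantile normalization (0.80, adjusted p = 0.0568). From 6 to 24 h Ndufaf4 rose by 1.36 ± 0.28. Ndufaf2 read 1.37 and 1.66 in KO cells at 0 h, 0.69 and 1.22 at 6 h, 0.54 and 0.62 at 12 h, and 1.64 and 1.0 at 24 h. Ndufaf2 values in WT cells were 1.34 and 1.6 at 0 h, 1.02 and 1.34 at 6 h, 0.17 and 0.62 at 12 h, and 1.38 and 1.15 at 24 h. All 12 h arrays of Ndufaf2 were below the 0 h arrays, at -1.01 ± 0.22 (2.01-fold lower, adjusted p = 0.00529 by limma), and the 24 h arrays overlapped them. All 4 factors were called at 1 or more times with the session in the fit, against 73.2% of all genes. Without the session 3 of the 4 were, against 49.8%. With it Ndufaf1 was higher at 24 h (0.52 ± 0.22, adjusted p = 0.129 by limma without and 0.0148 with the session). Ndufaf3 was then higher at 12 h as well (0.49 ± 0.24, adjusted p = 0.14 by limma without and 0.0277 with the session).

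Of the 3 names that are not subunits of the enzymes, Atp5s (now Dmac2l, a protein once called factor B of the ATP synthase) fell most. Atp5s read 0.15 and 0.44 in KO cells at 0 h, -2.71 and -1.66 at 6 h, -1.28 and -0.91 at 12 h, and -0.07 and -0.72 at 24 h. Atp5s values in WT cells were 0.12 and 0.27 at 0 h, -2.58 and -1.89 at 6 h, -1.1 and -0.93 at 12 h, and -0.2 and -0.57 at 24 h. Every 6 and 12 h array of Atp5s was below the 0 h arrays. It fell 5.48-fold at 6 h (-2.45 ± 0.28, adjusted p = 6.2e-05 by limma) and 2.47-fold at 12 h (-1.30 ± 0.28), and both calls held without any 1 array and under quantile normalization. A further probe gave -1.38 and -0.90, also called. Atp5sl read 0.62 and 0.86 in KO cells at 0 h, -0.75 and -0.46 at 6 h, 0.05 and 0.54 at 12 h, and 0.72 and 0.87 at 24 h. Atp5sl values in WT cells were 0.83 and 0.53 at 0 h, -0.8 and -0.81 at 6 h, 0.0 and 0.58 at 12 h, and 0.6 and 0.32 at 24 h. Atp5sl is now Dmac2, a complex I assembly factor, and was not counted with Ndufaf1 to Ndufaf4. It fell 2.66-fold at 6 h (-1.41 ± 0.20, adjusted p = 0.000304 by limma) and was back among its 0 h values at 24 h. Cox4nb (now Emc8, a subunit of the membrane protein insertion complex of the endoplasmic reticulum) changed by -0.38 ± 0.20 at 6 h by its brightest probe (adjusted p = 0.165 by limma without and 0.0178 with the session in the fit) and by -2.47 by a dimmer probe, called without the session.

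Across the 27 genes with more than 1 detected probe, the 32 further probes had the sign of the chosen one in 29 cases at 6 h, 27 at 12 h and 27 at 24 h, and 5, 2 and 4 of them were called. Of the 28 called pairs of gene and time, 14 held when any 1 array was left out, 14 held under quantile normalization and 12 did both. Those 12 were Ndufs4 at 6 and 12 h, Cox5a at 12 and 24 h, Cox6a2 at 12 and 24 h, Ndufaf3 at 24 h, Ndufb11 and Ndufaf2 at 12 h, Atp5s at 6 and 12 h and Atp5sl at 6 h. Scaling to the median also held 12 of the 28, but not the same ones. It lost Ndufb11, Ndufaf2 and Atp5s at 12 h. Normexp background correction held 5 of the 28, and 25 with capped local background.

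Fewer calls were made within each genotype. In KO cells 5 of 82 genes were called at 6 h (26.0% of all genes), 3 at 12 h (19.4%) and 3 at 24 h (9.90%), and with the session in the fit 9 (43.7%), 13 (38.4%) and 6 (24.1%). In WT cells 5 of 82 were called at 6 h (25.4% of all genes), 3 at 12 h (19.3%) and 3 at 24 h (11.0%), and with the session 10 (45.6%), 10 (37.6%) and 8 (27.4%). The KO and WT comparisons of a time use separate arrays. From 6 to 24 h, genotypes averaged, 6 genes were higher and 1 lower, against 27.0% of all genes called, 14.1% higher and 12.9% lower. With the session in the fit 10 were higher and 7 lower, against 48.8% of all genes called. The higher ones were Atp5s, Atp5sl, Cox6a2, Ndufaf3, Ndufaf4 and Ndufc2, and the lower one Uqcrfs1.

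KO against WT, no gene of the 82 was called, averaged over the 4 times or at any 1 time, and limma gave 0 of 82 an unadjusted p under 0.05 in each of these comparisons. These p-values and the intervals below are from the fit without the session, so differences between sessions enter their spread. Averaged over times 0.0170% of all genes were called, 3 in number, and at 12 h 0.0113%, 2 in number, with 0.00% at 0, 6 and 24 h. With the session in the fit 0 of the 82 and 0.0226% of all genes were called averaged over times. The averaged difference had a 95% confidence interval inside 1 log2 unit for 79 of the 82 genes (96.3%, against 73.8% of all genes), and at single times for 57 genes at 0 h, 68 at 6 h, 66 at 12 h and 51 at 24 h. Ndufs7, a Q module subunit, had the smallest unadjusted p among these comparisons, with a difference of 0.22 ± 0.15 averaged over times. The averaged differences lay between -0.19 and 0.33, with a median of 0.06 against 0.00 for all genes.

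The LPS response did not pass the test of a difference between KO and WT for any of the 82 genes. The joint F test over 6, 12 and 24 h called 0 of 82 and 0.00% of all genes (0.0113% with the session), and none of the 3 single differences was called. The intervals of these differences are wide, and only 18 of 82 lay inside 1 log2 unit at each time. These intervals too are from the fit without the session, with differences between sessions in their spread. At 0 h 77 of the 82 genes had a higher mean in KO than in WT cells, with a median difference of 0.14 (0.17 in session 1 and 0.14 in session 2), while 52.5% of all genes and 74.6% of the brightest quartile were higher in KO. Under quantile normalization 56 of 82 were higher, with a median of 0.05. At 6, 12 and 24 h the median differences were 0.00, -0.01 and 0.15. The sessions disagreed in sign at 6 h (-0.15 in session 1, 0.18 in session 2) and at 12 h (0.13 and -0.16).

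**Figure D4:**
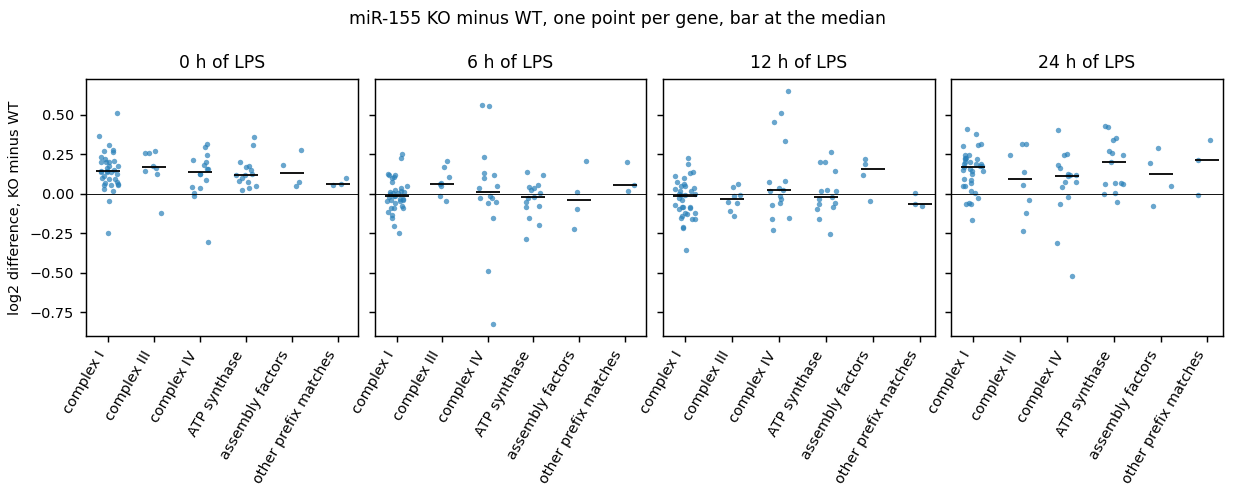
Difference of group means, miR-155 KO minus WT, in log2 units, for each of the 82 genes by enzyme complex (one point a gene, black dash at the median) at 0, 6, 12 and 24 h of LPS. No point is a called difference. Most lie above 0 at 0 h (77 of 82) and 24 h (66 of 82), and they straddle 0 at 6 and 12 h. The share of all genes above 0 at 24 h is not given here, so the 66 are not read as a shift of these genes.

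Genes that work beside these subunits were taken from 6 lists, whose counts are read against 40.7%, 34.5% and 22.8% of all genes called at 6, 12 and 24 h, or 59.5%, 53.3% and 41.9% with the session in the fit. Of the 98 calls in these lists 83 held under quantile normalization and 64 without any 1 array. Scaling to the median held 48, and normexp background correction 13 (85 with capped local background). Of the calls named below, scaling to the median lost Dld and Coq9 at 6 h and Vdac3 and Etfdh at 12 h. It also lost Sdhb, Coq2 and Fh1 at 24 h, and Myc at 12 and 24 h. Among the 4 subunits of complex II, which feeds electrons from succinate, 0 were called at 6 and 12 h and 1 at 24 h, Sdhb (0.80 ± 0.22), whose call was lost without any 1 of 6 arrays and under quantile normalization (0.51, adjusted p = 0.0563 by limma). With the session Sdhb was called at 12 h too (0.56 ± 0.22, adjusted p = 0.035 by limma). Of 16 other chain components and ATP synthase partners 4 were higher and 1 lower at 6 h, 4 higher and 1 lower at 12 h, and 5 higher and 0 lower at 24 h. With the session they were 6 higher and 2 lower, 7 higher and 5 lower, and 6 higher and 4 lower. Cycs, cytochrome c, which carries electrons between complexes III and IV, rose 6.84-fold at 6 h (2.77 ± 0.24, adjusted p = 9.9e-06 by limma), 7.83-fold at 12 h and 4.20-fold at 24 h. Higd1a, a complex IV partner induced by hypoxia, rose 2.41-fold at 6 h, and Vdac3, an outer membrane channel, 2.05-fold at 12 h. Etfdh, which passes electrons from fatty acid oxidation to coenzyme Q, fell 2.20-fold at 12 h (-1.13 ± 0.18). The calls of Cycs held at all 3 times without any 1 array and under quantile normalization.

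Of the assembly factors outside the prefixes, 35 tested of 38 listed, 8 were higher and 8 lower at 6 h, 9 higher and 5 lower at 12 h, and 12 higher and 0 lower at 24 h. With the session they were 12 higher and 10 lower, 15 and 5, and 17 and 1. Sco1, a copper chaperone for complex IV, rose 9.00-fold at 6 h (3.17 ± 0.32), and Cox18, which inserts a complex IV subunit into the membrane, rose 5.47-fold at 12 h (2.45 ± 0.25). Coa5, also a complex IV factor and carried on the array as 6330578E17Rik, rose 5.51-fold at 12 h (2.46 ± 0.41). Sdhaf1, which helps to mature the iron-sulphur subunit of complex II, fell 3.18-fold at 6 h (-1.67 ± 0.18). Coa6, a complex IV factor listed as 1810063B05Rik, fell 2.87-fold at 6 h (-1.52 ± 0.18), and Bcs1l, which places Uqcrfs1 in complex III, fell 2.60-fold at 6 h (-1.38 ± 0.21).

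In coenzyme Q synthesis 3 of 11 tested genes (12 listed) were higher and 4 lower at 6 h, 3 and 2 at 12 h, and 2 and 0 at 24 h (3 and 4, 4 and 3, and 4 and 0 with the session). Pdss1, which makes the isoprenoid tail, rose 8.81-fold at 6 h (3.14 ± 0.32), Coq10b 3.14-fold at 12 h (1.65 ± 0.25) and Coq2, which joins tail and ring, 1.79-fold at 24 h (0.84 ± 0.20). Coq8a, on the array as Cabc1, fell 5.20-fold at 6 h (-2.38 ± 0.27) and Coq9 2.05-fold (-1.04 ± 0.24). Coq10a read -3.60 ± 0.46 at 6 h, but only -0.16 with normexp background correction and capped local background, so its size depends on the background correction.

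In the Krebs cycle 1 of 13 genes was higher and 1 lower at 6 h, 1 and 2 at 12 h, and 0 and 1 at 24 h (3 and 3, 3 and 3, and 5 and 3 with the session). Fh1, fumarate hydratase, fell at all 3 times, 2.65-fold at 12 h (-1.41 ± 0.22), and Dld, shared by several dehydrogenase complexes, rose 2.18-fold at 6 h (1.13 ± 0.28). Idh3g fell at 12 h (-1.02 ± 0.28), a call lost without KO 0 h replicate 1, WT 0 h replicate 1, KO 12 h replicate 2 or WT 12 h replicate 2. Of 14 regulators of mitochondrial biogenesis 4 were higher and 2 lower at 6 h, and 4 higher and 3 lower at both 12 and 24 h (5 and 3, 6 and 4, and 6 and 3 with the session). Ppargc1b, a coactivator of such genes, rose 4.68-fold at 6 h (2.23 ± 0.32), Hif1a, the hypoxia-inducible factor subunit, 4.22-fold (2.08 ± 0.32), and Esrra, oestrogen-related receptor alpha, 3.04-fold at 12 h (1.60 ± 0.22). Polrmt, the mitochondrial RNA polymerase, fell 2.61-fold at 6 h (-1.38 ± 0.27), and Tfb2m, its partner at promoters, fell 2.58-fold (-1.37 ± 0.25). Myc read -2.33 ± 0.81 at 12 h and -2.52 ± 0.81 at 24 h, calls lost without any 1 of 10 and of 11 arrays. No gene of these 6 lists was called for KO against WT averaged over times.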

How the data were processed

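Total RNA on 16 single-colour (Cy3) Agilent arrays was analysed. Per the file headers, Feature Extraction 10.5.1.1 gave the deposited processed intensity of each spot (background subtracted and detrended) and the deposited flags for outliers, saturation and signal well above background (read as 0 or 1). The authors' deposited series table holds log2 values, which correlated with the log2 intensities at r = 1 and served as an alternative. Probe positions are on mm9, per the file headers.

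Outlier flags (61 to 108 spots per array) and 1639 control spots were left out. Probes measured on every array numbered 41077, of which 26855 were well above background on both arrays of at least 1 group. The log2 intensity minus the array's 75th percentile was fitted with limma 3.58.1 in R 4.3.3 (8 groups, 8 residual degrees of freedom), with Benjamini-Hochberg adjustment over 17669 gene names. Values after ± are standard errors of that fit. The script was tested on simulated data. Arrays with the same number share a scan session per the file headers. Same-numbered arrays deviated together from their group means for each of the 28 group pairs (r from 0.40 to 0.839, median 0.578). A pairing of mice or cultures by number cannot be told apart from the session. Counts with the session in the fit are given beside those without it.

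Genes given with every array value were, by rule, the 3 largest rises and falls called per complex with non-overlapping arrays, and a set of core and isoform genes. Ndufv3, Atp5s, Atp5sl and the other members named singly were added after their values were seen. A single member is counted in the totals but not reported by itself here. Pathway genes are at most 3 called each way per list. Members, lists and motifs were chosen with earlier results of these data known. Promoters are from RefSeq on GRCm38.p6.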

Additional observations from a re-analysis of the deposited data

How the results depend on the processing

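Counts of the 82 genes called are given here for LPS at 6, 12 and 24 h against 0 h and for 24 h against 6 h. With the scan session as a replicate block they were 19, 20 and 16 averaged over genotypes, 9, 13 and 6 in KO, 10, 10 and 8 in WT, and 17 from 6 to 24 h, against 10, 11, 7, then 5, 3, 3 in each genotype, and 7 as reported. With the slide as a block they were 21, 20 and 11 averaged, 9, 8 and 6 in KO, 12, 7 and 6 in WT, and 14. Averaged over genotypes, 62.4%, 55.7% and 39.1% of all genes were then called. Quantile normalization gave 31 and 32 averaged at 6 and 12 h, 11 and 6 in KO, 11 and 5 in WT, and 19 from 6 to 24 h. The averaged shares of all genes were 47.2% and 38.9%. Median scaling gave 6 and 4 averaged, 1 and 0 in KO, 1 and 1 in WT at 6 and 12 h. It called 33.2% and 26.1% of all genes averaged at those times. Without a filter on dim probes, counts are of 85 genes with these prefixes, among 27632 gene names tested. They were 6 and 4 averaged at 12 and 24 h (19.7% and 12.1% of all names), 1 in KO at 12 h and 1 in WT at 24 h. Normexp background correction gave 2, 3 and 2 averaged, 0 in KO and 0 in WT at each time, and 0 from 6 to 24 h. Its averaged shares were 2.44%, 3.66% and 2.44% of the 82 genes, against 9.90%, 8.18% and 2.79% of all genes. At 24 h the 82 genes were thus near the share of all genes. Normexp with the brightest local backgrounds capped, added after seeing the data, gave 5 in KO and 5 in WT at 12 h. Averaged at 12 h it called 13.4% of the 82 genes and 28.2% of all genes. Leaving out 1 array gave 5 to 10, 6 to 11 and 3 to 8 averaged, 2 to 5, 0 to 5 and 0 to 3 in KO, 2 to 5, 0 to 4 and 0 to 3 in WT, and 5 to 8 from 6 to 24 h. In each fit without 1 array the share of the 82 genes called at a time was below that of all genes. KO against WT gave 0 throughout.

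The cause of these changes in count was not tested. Changes that turned sign under quantile normalization were Atp5a1 -0.14, Atp5b -0.10, Atp5f1 -0.0936, Uqcrc2 -0.15 and Usmg5 -0.15 at 6 h, and Uqcrfs1 -0.0769 at 12 h. Under uncapped normexp at 12 h they were Atp5b -0.92, Atp5f1 -0.74, Atp5o -0.90, Cox5a -0.41, Ndufs4 -0.0861, Uqcrfs1 -1.10, Usmg5 -0.93, Vdac3 -0.57, Higd1a -0.77, Foxred1 -0.30, Cox20 (Fam36a) -0.80, Coq2 -0.46, Dld -0.43 and Coq10a 1.06. The median of the 82 genes at 12 h was then -1.41, against 0.32 for all genes. Capping the brightest local backgrounds of each array gave 0.00 and 0.17 and turned none of these. The 12 h values under normexp thus depend on that capping, and which spots made the difference was not tested. The number of arrays, 2 per group, limits the precision.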
